A study of Mus musculus with 4 samples.

Results

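The genes described here drive or police cell division: cyclins and their kinases, kinase inhibitors, replication factors, mitotic kinases and the spindle checkpoint. They were chosen by name, as 42 mouse genes, with earlier results of these data known. Shares of them set against a background below are therefore descriptions, not tests. Every probe set annotated to 1 of these genes alone was taken. This gave 56 of 12422 probe sets, for 39 genes. Ccnb1, Cdc25b and Bub1b had no such probe set. A filter on dim signals, a mean scaled signal above 22.7 over the arrays, kept 41 probe sets of 34 genes. Ccnd2, Ccne2, Cdkn1b, Mcm6 and Rb1 were measured only below it.

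Testes of hypogonadal (hpg) mice were profiled on 4 arrays, 1 per sample. These mice lack gonadotropin-releasing hormone, so testosterone can be supplied and removed experimentally. Every group shares the hpg background, a course of testosterone proprionate (a testosterone ester, spelled as in the labels) and its withdrawal. The group titled T+T has 3 arrays. Its replicate 1 is described as given the ester again for 4 hours after withdrawal, with no length stated for the first course. Replicates 2 and 3 are described only as pretreated for 2 weeks and then withdrawn, so their place in T+T rests on the title. The group titled T+O has 1 array, pretreated for 2 weeks and withdrawn. Age, strain and the number of animals per array are not given in the sources used here. Nothing says that the arrays came from separate animals, so p-values measure only a spread between samples, here that between the 3 T+T arrays. That spread mixes the array described as given the ester again with those described as withdrawn.

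In a dividing cell, D and E cyclins with Cdk4 and Cdk2 release E2F from the retinoblastoma protein and start DNA synthesis, and B cyclins with Cdk1 start mitosis. The spindle checkpoint holds back Cdc20 until every chromosome is attached. In the testis the mitotic divisions are those of spermatogonia, while spermatocytes use many of the same genes, and cyclin A1 above all, in the meiotic divisions. Whole testis mixes these cells with somatic cells, so fewer cells of a type and less RNA per cell cannot be told apart.

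The deposited levels differed between arrays. Their trimmed means were 84.1, 72.9 and 124 on T+T replicates 1, 2 and 3 and 106 on the T+O array, and all signals below are scaled to a common trimmed mean. Of markers listed for the cells of a testis, 7 of 14 spermatogonial, 7 of 14 spermatocyte and 16 of 16 spermatid genes passed the filter. So did 11 of 15 Sertoli, 8 of 11 Leydig cell and 9 of 12 macrophage genes. Of the spermatogonial and spermatocyte genes listed, only 10 and 8 had a probe set. Over the whole series, 5677 of 8251 genes passed. The summed signal of 7 spermatogonial markers was 874 to 1235 in T+T and 1296 in T+O. That of 7 spermatocyte markers was 7911 to 9267 in T+T and 8368 in T+O, and that of the 16 spermatid markers 36953 to 48223 in T+T and 38651 in T+O. The Sertoli, Leydig and macrophage sums were 3229 to 3837, 1586 to 1834 and 609.8 to 794 in T+T, against 3347, 1787 and 583 in T+O. The spermatogonial sum was thus lower, and the macrophage sum higher, on all T+T arrays than in T+O, but single markers within each list went both ways. The largest part of the spermatogonial sum is Ddx4, at 283, 597 and 588 in T+T against 635 in T+O. Of the 7 spermatogonial markers, 3 (Dazl, Stra8 and Ddx4) were below T+O on every T+T array and 3 (Uchl1, Kit and Dmrt1) above it. Of the 9 macrophage markers, 3 were above and 1 below. The spermatocyte sum is made up mostly of Ldhc, and the list held the lowest difference of all 7453 probe sets tested. Sycp1, a protein of the synaptonemal complex of meiosis, had 13.5, 38.5 and 36.2 in T+T, against 390 in T+O, a log2 difference of -3.42 ± 0.42 (SE; adjusted p = 0.11 in limma). Another marker of that list, Mns1, was below T+O on every T+T array as well, and Hspa2 and Pgk2 were above it. The part of these markers in the results below was not tested. The control gene Gapdh, probed at both ends of its transcript, had a 3′ to 5′ signal ratio of 0.844 ± 0.039 in T+T (SD, n = 3) and 1.20 in T+O. For Pcx the ratio was 1.896 ± 0.12 in T+T and 3.76 in T+O, while for Actb it was 1.41 ± 0.24 in T+T and 1.53 in T+O. For Tfrc it was 1.52, 3.39 and 3.12 on T+T replicates 1, 2 and 3 and 9.5 in T+O, where the 5′ probe set was dim, at a deposited signal of 4.9 to 15.6 in T+T and 3 in T+O. By 3 of these 4 control genes, Actb being the exception, T+O stood above all 3 T+T arrays.

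Above the filter, the lowest mean differences in T+T were those of Ttk, Bub1 and Top2a. Each had less signal on every T+T array than on the T+O array, by at least 1.5-fold. Below the filter, 1 probe set of Mki67, 99457_at, lay lower still, at -1.57 on the log2 scale. The highest mean differences were those of 1 probe set each of Plk1, a kinase of mitotic entry, and Cdk2, a kinase of S phase. Next came the meiotic cyclin Ccna1 and the centrosome kinase Nek2. No cell cycle probe set passed the test over all probe sets in either direction (limma, 0 of 41 past an adjusted p of 0.05; background 0.0268%, the share of all 7453 probe sets tested that passed in either direction). At an unadjusted p under 0.05 there were 3 higher (Plk1, Nek2 and Ccna1; background 3.57%) and 3 lower (Bub1, Top2a and Ttk; background 4.23%). With 1 array against 3, the arrays allow only 4 arrangements, and a two-sided exact permutation test of a single gene could not go below p = 0.25.

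Ttk, the kinase that heads the spindle checkpoint, had a scaled signal of 99.1, 197 and 161 on T+T replicates 1, 2 and 3, against 397 on the T+O array. Every T+T array was below T+O, and replicate 1 was the lowest. The log2 difference, taken on the log2(signal + 10) scale as throughout, was -1.37 ± 0.33 (SE; adjusted p in limma, 0.28). Without T+T replicate 1 it was -1.11 and passed (limma, adjusted p = 0.019). That fit holds 2 T+T arrays and the single T+O array, and 63 of all 7453 probe sets passed in it (0.845%), against 2 with all arrays. Both T+T arrays in that fit are described, like T+O, as pretreated and then withdrawn, and the array described as given the ester again is left out. Bub1, a checkpoint kinase of the kinetochore, had 61.5, 88.2 and 98.3 in T+T, against 206 in T+O. The groups did not overlap, and the log2 difference was -1.24 ± 0.28 (SE; adjusted p = 0.26 in limma). Top2a, the topoisomerase that untangles replicated chromosomes, had 75.9, 85.3 and 109 in T+T, against 202 in T+O. Again all T+T arrays were lower, by -1.10 ± 0.25 on the log2 scale (SE; adjusted p = 0.26 in limma). These 3 are all the probe sets among 41 at least 1.5-fold lower on every T+T array, 7.32% of them against a background of 2.21% of all probe sets. The Gapdh, Pcx and Tfrc ratios and the marker Sycp1 were likewise lower on every T+T array than in T+O, and their part in the result was not tested.

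Plk1, the polo-like kinase of mitotic entry, was measured by 3 probe sets. The one lying highest, 93099_f_at, had 373, 307 and 327 in T+T, against 195 in T+O, a log2 difference of 0.75 ± 0.19 (SE; adjusted p = 0.31 in limma). Its name marks probes shared within a gene family. The others were 566, 496 and 390.1 in T+T against 385 in T+O for 101350_g_at, and 212, 147 and 215 in T+T against 169 in T+O for 161292_f_at. All 3 had a positive mean difference, but the last overlapped between the groups. Nek2, a kinase that splits the centrosomes, had 1080.4, 1034 and 1022 in T+T, against 727 in T+O. The T+T arrays were close together and all higher, by 0.52 ± 0.16 on the log2 scale (SE; adjusted p = 0.45 in limma). At least 1.5-fold higher on every T+T array were 2 probe sets, this Plk1 probe set and 94411_at of Cdk2, which is 4.88% of the 41 against a background of 1.82%. Counted by gene, with the brighter probe set standing for each, there was none of 34 genes, against a background of 1.48%.

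**Figure D1:**
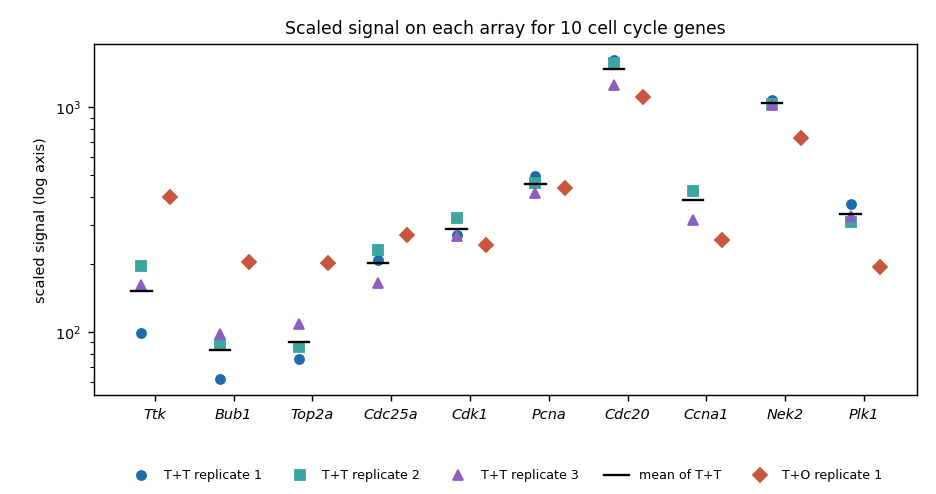
Scaled signal (log axis) of 10 cell cycle genes on the 3 T+T arrays (coloured symbols at the left of each gene, black bar at their mean) and on the T+O array (diamond at the right). Ttk, Bub1 and Top2a lie lower on all T+T arrays, Nek2, Ccna1 and the Plk1 probe set 93099_f_at lie higher on all of them, and Pcna overlaps between the groups.

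Genes of the mitotic programme share promoter elements, chiefly CCAAT boxes bound by NF-Y and the cell cycle homology region (CHR) bound by the DREAM and MuvB complexes. The promoters of the 3 lowest genes and of the 3 with the lowest p on the higher side are shown so that these elements can be compared, as 300 bases from 250 before the start of transcription (RefSeq, GRCm38.p6), 5′ to 3′. Capitals mark CCAAT and the CHR core TTTGAA, each on either strand.
Ttk (chr9:83834439-83834738, plus strand): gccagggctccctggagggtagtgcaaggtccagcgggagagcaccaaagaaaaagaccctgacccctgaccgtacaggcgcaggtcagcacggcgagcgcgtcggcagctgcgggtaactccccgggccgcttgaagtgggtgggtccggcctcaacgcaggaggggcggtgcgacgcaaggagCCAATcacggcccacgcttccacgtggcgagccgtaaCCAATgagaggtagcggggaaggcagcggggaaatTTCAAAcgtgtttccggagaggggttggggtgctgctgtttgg
Bub1 (chr2:127831810-127832109, minus strand): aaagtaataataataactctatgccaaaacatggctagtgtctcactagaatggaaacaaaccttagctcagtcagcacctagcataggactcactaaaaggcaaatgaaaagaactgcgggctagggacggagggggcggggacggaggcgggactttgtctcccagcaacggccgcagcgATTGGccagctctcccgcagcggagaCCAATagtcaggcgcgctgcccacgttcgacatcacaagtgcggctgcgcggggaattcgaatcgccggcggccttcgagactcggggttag
Top2a (chr11:99024140-99024439, minus strand): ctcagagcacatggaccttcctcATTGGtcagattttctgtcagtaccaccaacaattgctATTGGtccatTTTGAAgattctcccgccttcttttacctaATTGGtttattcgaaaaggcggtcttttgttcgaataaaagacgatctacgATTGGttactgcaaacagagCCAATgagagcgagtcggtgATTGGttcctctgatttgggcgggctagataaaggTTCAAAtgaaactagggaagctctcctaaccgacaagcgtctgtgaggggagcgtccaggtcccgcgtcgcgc
Plk1 (chr7:122159185-122159484, plus strand): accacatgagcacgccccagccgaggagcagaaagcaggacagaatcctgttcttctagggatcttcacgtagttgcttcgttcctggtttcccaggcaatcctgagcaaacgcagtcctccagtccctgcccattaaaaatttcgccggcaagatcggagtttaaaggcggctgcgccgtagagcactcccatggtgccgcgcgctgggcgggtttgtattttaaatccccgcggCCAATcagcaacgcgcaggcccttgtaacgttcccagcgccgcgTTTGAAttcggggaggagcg
Nek2 (chr1:191821223-191821522, plus strand): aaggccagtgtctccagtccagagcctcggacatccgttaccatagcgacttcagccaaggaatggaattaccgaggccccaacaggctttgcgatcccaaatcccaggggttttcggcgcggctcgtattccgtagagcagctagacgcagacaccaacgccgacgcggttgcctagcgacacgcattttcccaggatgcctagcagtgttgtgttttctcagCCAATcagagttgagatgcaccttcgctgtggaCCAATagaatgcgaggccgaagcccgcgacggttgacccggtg
Ccna1 (chr3:55055006-55055305, minus strand): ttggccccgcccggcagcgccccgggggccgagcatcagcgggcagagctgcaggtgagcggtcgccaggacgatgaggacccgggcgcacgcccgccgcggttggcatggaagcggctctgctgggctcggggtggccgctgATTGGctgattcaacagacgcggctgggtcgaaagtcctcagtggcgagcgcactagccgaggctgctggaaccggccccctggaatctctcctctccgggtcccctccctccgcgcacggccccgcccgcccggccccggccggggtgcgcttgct

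Ttk and Top2a, on the lower side, and Plk1, on the higher side, hold at least 1 TTTGAA in this window, and all 6 promoters hold at least 1 CCAAT. Top2a has 6 CCAAT matches and 2 TTTGAA matches. Bub1, Nek2 and Ccna1 have no exact TTTGAA in these 300 bases, and other forms of the CHR were not searched. Promoters were at hand for 33 of the 42 genes, 38 sequences with alternative starts. CCAAT was in 76.3% of these sequences, in 37% of the 8408 promoters of genes named on the array and in 37.4% of all 32851 promoters. For TTTGAA the shares were 31.6% of the cell cycle promoters, 12.9% for genes on the array and 17.9% of all. The E2F octamers TTTCCCGC and TTTGGCGC, searched on both strands, were in 15.8% of the cell cycle promoters, 2.65% for genes on the array and 1.56% of all. The 6 cell cycle promoters with an octamer belong to Cdc25a, Cdk2, Mcm3, Mcm5, Mcm6 and Mcm7. Matches of different motifs overlapped in 49 of all promoters. The matches thus occur on both sides of the array comparison, and they are a description of letters, not of binding.

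The 7 cyclin probe sets above the filter had mean differences on both sides, from -0.47 for Ccna2 to 0.57 for Ccna1 on the log2 scale. Ccna1, the germ cell cyclin of meiosis, had 423, 425 and 316 in T+T, against 256 in T+O, a log2 difference of 0.57 ± 0.22 (SE; adjusted p = 0.59 in limma). All T+T arrays were higher, with replicate 3 nearest to T+O. Ccna2, its counterpart in mitotic cells, had 93.4, 35.8 and 115 in T+T, against 106 in T+O. Replicate 2 alone was far below, and replicate 3 was above T+O. Ccnb2, a B cyclin that works with Cdk1, had 1597, 1495 and 1439 in T+T, against 1269 in T+O, a difference of 0.25 on the log2 scale (limma, adjusted p = 0.79). The D cyclin Ccnd3 had 264, 238 and 236 in T+T, against 237 in T+O, and the S phase cyclin Ccne1 had 95.8, 87.6 and 117 in T+T, against 95.4 in T+O. Both straddled T+O. Ccnd1, which links growth signals to Cdk4, had 1 probe set at 50.6, 35.7 and 41.4 in T+T against 37.0 in T+O, and another at 11.4, 51.1 and 15.7 in T+T against 30.0 in T+O. The second is scattered around T+O on both sides. Ccnd2, another D cyclin, and Ccne2, another E cyclin, were below the filter, Ccnd2 at 4.26, 17.6 and 5.22 in T+T and 3.38 in T+O and Ccne2 at 1.27, 2.79 and 6.54 in T+T and 11.7 in T+O.

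The 5 probe sets of cyclin-dependent kinases had mean differences from -0.10 to 0.70 on the log2 scale, with a median of 0.18, and none passed. Cdk1, the kinase of mitosis, had 270.2, 319.8 and 267 in T+T, against 243 in T+O. Its log2 difference was 0.22 ± 0.19 (SE; adjusted p = 0.86 in limma). Cdk4, the partner of the D cyclins, had 331, 309 and 308 in T+T against 278 in T+O on 160538_at, and 61.3, 49.4 and 46.4 in T+T against 56.7 in T+O on 101017_at. The first lay above T+O on every T+T array and the second did not. Cdk2, the partner of cyclins E and A, had 150.2, 166 and 174 in T+T, against 156 in T+O, on 94412_at. Its dim probe set 94411_at had 29.0, 29.5 and 29.5 in T+T, against 14.2 in T+O, a log2 difference of 0.70 ± 0.35 (SE; adjusted p = 0.71 in limma). The 2 Cdk2 probe sets therefore differ, 1 level with T+O and 1 above it but dim.

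Among inhibitors of these kinases, Cdkn2c and Cdkn2d of the INK4 family, which block Cdk4 and Cdk6, had close values. Cdkn2c had 452, 465 and 390.4 in T+T, against 403 in T+O, and Cdkn2d had 459.8, 490.0 and 369 in T+T, against 396 in T+O. In both, T+T replicates 1 and 2 were above T+O and replicate 3 below. Cdkn1a, the p53 target p21, had the same order with a wider gap on 98067_at, at 114, 111 and 46.3 in T+T, against 72.4 in T+O. There the mean difference of 0.20 on the log2 scale had a standard error of 0.44. Its probe set 94881_at, below the filter, had 36.0, 9.95 and 12.2 in T+T, against 14.7 in T+O, with only replicate 1 above. Cdkn1b, which encodes p27, was below the filter, with 4.26, 8.36 and 9.74 in T+T against 11.98 in T+O on 161010_r_at, and 5.64, 3.45 and 4.21 in T+T against 2.93 in T+O on 100278_at. The retinoblastoma gene Rb1 was dim as well, at 4.95, 11.4 and 16.0 in T+T, against 14.8 in T+O, on its brighter probe set. E2f1, the factor that the retinoblastoma protein restrains, had 6.79, 4.25 and 4.44 in T+T, against 13.3 in T+O, on 102963_at, below the filter. On 161427_f_at, above the filter, it had 19.1, 34.5 and 36.6 in T+T, against 38.7 in T+O. All T+T arrays were lower, replicates 2 and 3 by little, and the log2 difference was -0.31 ± 0.39 (SE; adjusted p = 0.91 in limma).

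The phosphatases and kinases that set the Cdk1 switch showed small differences. Cdc25a, which removes the inhibitory phosphate, had 209, 232 and 165 in T+T, against 269.7 in T+O, a log2 difference of -0.41 ± 0.23 (SE; adjusted p = 0.73 in limma). Its other probe set was at the bottom of the scale, at 4.49, 4.91 and 5.22 in T+T and 2.47 in T+O, and ran the other way. Wee1, which adds that phosphate, had 34.5, 21.9 and 36.6 in T+T, against 44.2 in T+O. The eraser and the writer thus both lay below T+O on every T+T array, and neither passed the test. Cdc25c, another phosphatase of mitotic entry, had 95.1, 108 and 137 in T+T against 97.9 in T+O on 102934_s_at, and 37.7, 54.7 and 32.6 in T+T against 45.0 in T+O on 102935_at. Chek1, the kinase that stops the cycle when replication forks stall, had 25.4, 23.2 and 39.7 in T+T, against 28.2 in T+O. Both genes overlapped between the groups.

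Apart from Top2a, the replication genes above the filter had small mean differences. Pcna, the sliding clamp of DNA polymerase, had 494, 460.3 and 414 in T+T, against 436 in T+O, a log2 difference of 0.06 ± 0.18 (SE; adjusted p = 0.97 in limma). The MCM genes encode the ring-shaped replicative helicase. Their 6 probe sets above the filter, for Mcm2, Mcm3, Mcm4, Mcm5 and Mcm7, had log2 differences from -0.14 for Mcm4 to 0.32 for Mcm7. Mcm7 had 649, 687 and 476 in T+T, against 478 in T+O, so that replicate 3 was level with T+O. Mcm2 had 72.2, 87.7 and 68.2 in T+T, against 71.7 in T+O. Mcm3 had 39.9, 58.2 and 66.0 in T+T against 52.5 in T+O on 100062_at, and 70.6, 86.9 and 125 in T+T against 77.6 in T+O on 160496_s_at. Both probe sets of Mcm3 had replicate 1 below T+O and the other T+T arrays above. Mcm4 had 40.7, 48.8 and 41.4 in T+T, against 48.8 in T+O, and Mcm5 had 263, 303 and 264 in T+T, against 264 in T+O. Mcm6 was below the filter, at 4.03, 3.45 and 9.97 in T+T and 6.86 in T+O. Top2a, described above, was the exception among the replication genes. Mki67, the proliferation antigen Ki-67, gave 2 opposite readings. On 161931_r_at it had 38.3, 31.6 and 45.8 in T+T, against 29.2 in T+O, and on 99457_at, which fell below the filter, it had 4.49, 14.1 and 8.65 in T+T, against 45.5 in T+O. The second would be a log2 difference of -1.57, lower on every T+T array, and the first one of 0.30, so no direction can be given for Mki67.

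Of the Aurora kinases, Aurka of the spindle poles had 713, 623 and 433 in T+T, against 459 in T+O, and Aurkb of the chromosome passenger complex had 101, 129 and 109 in T+T, against 99.3 in T+O. Aurkb was above T+O on every T+T array and Aurka on replicates 1 and 2. All 6 probe sets of the mitotic kinases Plk1, Aurka, Aurkb and Nek2 had a positive mean difference, from 0.15 to 0.75 with a median of 0.32, and none passed. Plk1 accounts for 3 of them, and 53.7% of all 7453 probe sets had a positive mean difference. Aurka on replicate 3 and 161292_f_at of Plk1 on replicate 2 lay below T+O. In the spindle checkpoint, whose Ttk and Bub1 lay lowest, the other members went elsewhere. Bub3, the partner that carries Bub1 to kinetochores, had 613, 598 and 588 in T+T, against 493 in T+O, a log2 difference of 0.28 ± 0.17 (SE; adjusted p = 0.75 in limma). Cdc20, the target of the checkpoint and activator of the anaphase-promoting complex, had 1616, 1570.1 and 1254 in T+T, against 1107 in T+O, at 0.41 ± 0.20 (SE; adjusted p = 0.69 in limma). Both were above T+O on every T+T array. Mad2l1, which binds Cdc20 to restrain it, had 36.6, 47.2 and 101 in T+T, against 70.0 in T+O, with replicate 3 on the other side from replicates 1 and 2. The 5 checkpoint probe sets thus ran from -1.37 to 0.41 on the log2 scale, with a median of -0.26.

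**Figure D2:**
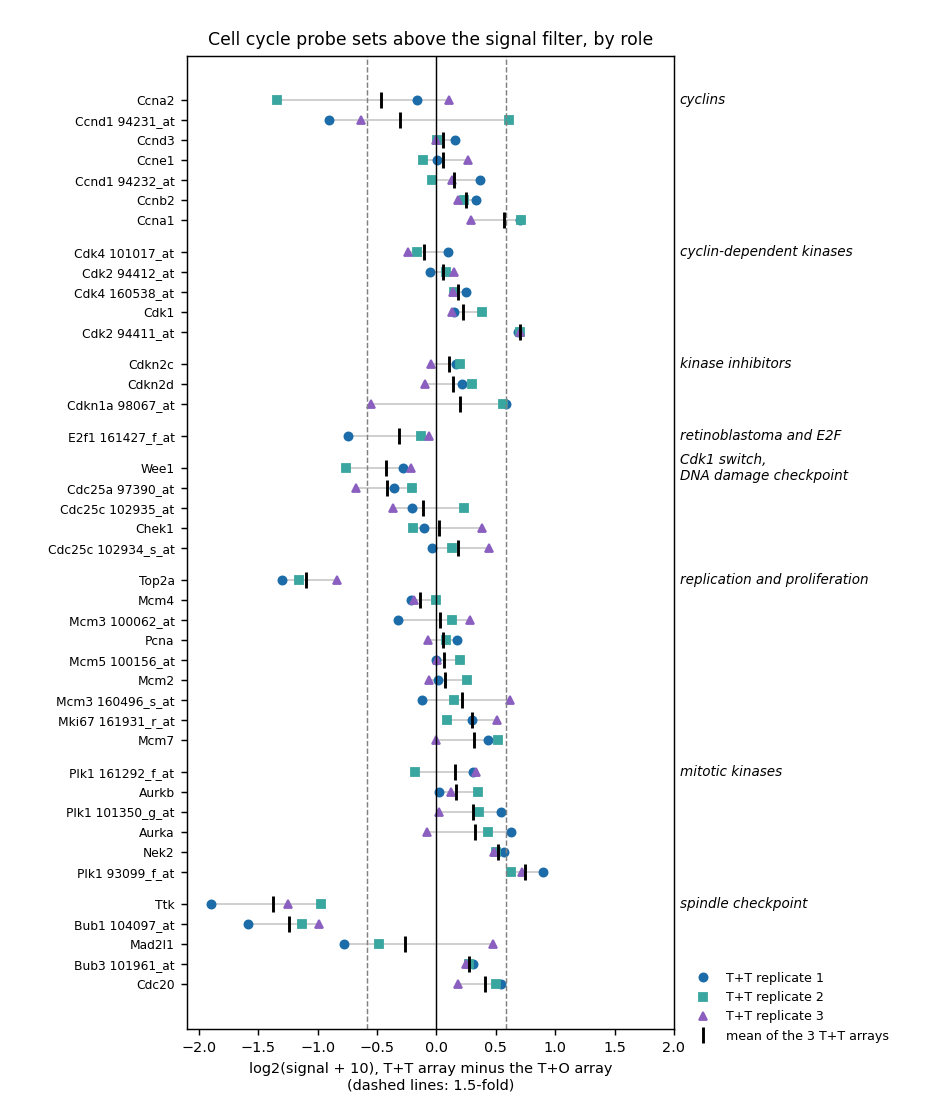
Difference of each T+T array from the T+O array on the log2(signal + 10) scale for the 41 cell cycle probe sets above the filter, grouped by role, with the mean of the 3 as a black bar and 1.5-fold as dashed lines. Ttk, Bub1 and Top2a lie beyond the left dashed line on all arrays, Plk1 93099_f_at and Cdk2 94411_at beyond the right one, and most others span 0 or lie close to it.

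Across the 41 probe sets, 29 had a positive and 12 a negative mean difference, so that 70.7% were positive, against 53.7% of all 7453 probe sets. The median was 0.11 on the log2 scale, and 0.03 over all 7453 probe sets above the filter. With the 15 dim probe sets included, the median of all 56 was 0.06. On 12 probe sets every T+T array was above T+O, 29.3% against a background of 29.5%, and on 7 every one was below, 17.1% against 23.7%. These shares were near or under the background. The median SD between T+T arrays was 0.21 on the log2 scale for the cell cycle probe sets and 0.20 for all.

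**Figure D3:**
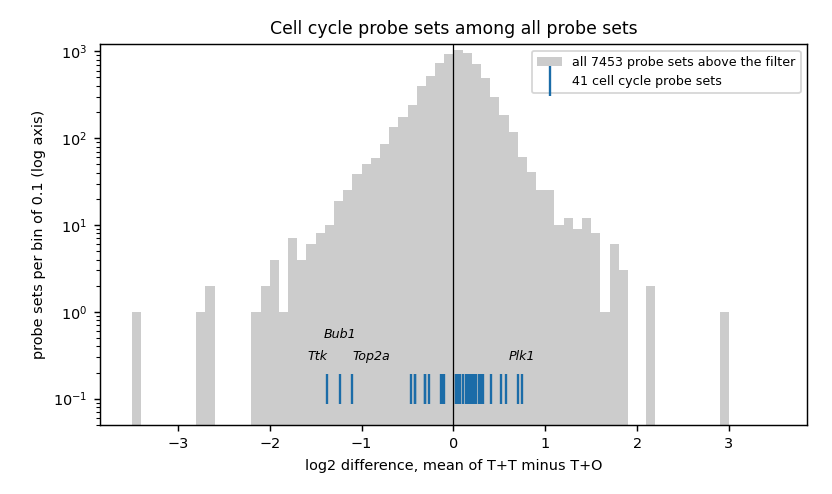
Histogram of the log2 difference, mean of T+T minus T+O, for all 7453 probe sets above the filter (grey, log axis), with a blue tick for each of the 41 cell cycle probe sets. Ttk, Bub1 and Top2a stand apart from the other ticks on the left, at -1.37, -1.24 and -1.10, and the others lie between -0.47 and 0.75.

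T+T replicate 3 was the T+T array nearest to T+O for 22 of 41 cell cycle probe sets, 53.7% against 40.6% of all probe sets, while replicate 1 was the farthest for 20, 48.8% against 38.1%. Aurka, given above, is an example of both, while Mcm7 and Ccna1 are examples only of replicate 3 lying nearest. Replicate 3 and T+O also had the highest deposited levels of the 4 arrays, and the part of that level in the result was not tested. For Ttk, Bub1 and Top2a, replicate 3 was nonetheless at least 1.5-fold below T+O.

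Set against T+O one at a time, the T+T arrays differed in which genes were 1.5-fold apart. In T+T replicate 1, the array whose title and description both state renewed testosterone, 5 of 41 probe sets were higher (Aurka, Ccna1, Cdk2, Cdkn1a and Plk1), 12.2% against a background of 6.83%. There 6 were lower (Bub1, Ccnd1, E2f1, Mad2l1, Top2a and Ttk), 14.6% against 11%. This is 1 array against 1, with no replicate check. In replicate 2, Ccna1, Ccnd1, Cdk2 and Plk1 were higher and Bub1, Ccna2, Top2a, Ttk and Wee1 lower, 9.76% against 6.35% and 12.2% against 9.34%. In replicate 3, Cdk2, Mcm3 and Plk1 were higher and Bub1, Ccnd1, Cdc25a, Top2a and Ttk lower, 7.32% against 7.86% and 12.2% against 5.89%. If replicates 2 and 3 are instead counted as withdrawn, as their descriptions end, T+T replicate 1 was at least 1.5-fold below all other arrays for E2f1 and Ttk, 4.88% against a background of 2.09%. Above all others it had none of the 41, against a background of 0.657%. Under that reading the log2 difference of Bub1 was -0.88 and that of Top2a -0.64, since for these genes replicates 2 and 3 lie nearer to replicate 1 than to T+O. Over all probe sets above the filter this held for replicate 2 only. Its Pearson correlation was 0.968 with replicate 1 and 0.952 with T+O, and that of replicate 3 was 0.953 and 0.956.

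Of 39 genes measured, 15 had more than 1 probe set, and in 7 of these the probe sets disagreed in sign. Above the filter, 6 genes had several probe sets and 3 disagreed, namely Ccnd1, Cdc25c and Cdk4. The share that disagreed over all genes with several probe sets was not counted, so these counts have no background. Bub1 had 3 probe sets, and the others, at 4.60, 3.32 and 17.3 in T+T against 13.4 in T+O and at 2.65, 1.06 and 1.32 in T+T against 6.59 in T+O, were below the filter. Their mean differences were also negative, but 1 of them had T+T replicate 3 above T+O. Ttk and Top2a were measured by 1 probe set each.

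**Figure D4:**
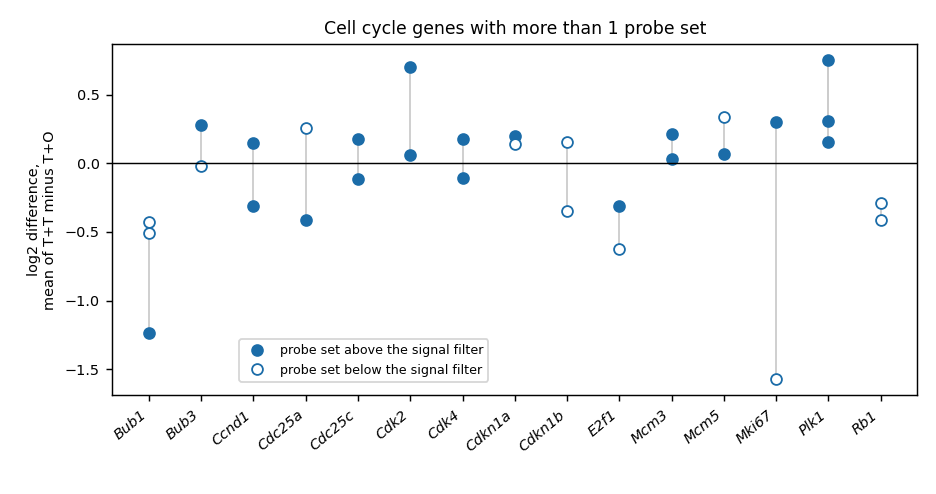
Log2 difference, mean of T+T minus T+O, of each probe set of the 15 cell cycle genes with more than 1, filled where the probe set passed the signal filter and open where it did not. The points of Mki67 lie farthest apart, at 0.30 and -1.57, and all 3 points of Bub1 are negative while all 3 of Plk1 are positive.

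Further genes of cell division, 175 in 3 lists also chosen with earlier results known, had a probe set above the filter for 114. None passed the test over all probe sets, and 11 had an unadjusted p under 0.05 (limma), 9.65% against a background of 7.49% of genes. At least 1.5-fold lower on every T+T array were 2 of 114, Rfc1 and Mdm4, 1.75% against a background of 2.34% of genes. At least 1.5-fold higher were 4, Ube2c, Rad1, Cdkn2a and Mybl2, 3.51% against 1.48%. The lower count was 4 without T+T replicate 2, 3.51% against a background of 2.7%, and 7 without replicate 3, 6.14% against 5.88%. Mybl2, a transcription factor of dividing cells, had 62.6, 64.9 and 84.5 in T+T, against 37.0 in T+O, and is named because of this count.

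In the list for mitosis and cytokinesis (39 genes, median -0.05 on the log2 scale), the lowest were Kif11, Plk4 and Nek7. The spindle motor Kif11 had 27.1, 4.78 and 38.6 in T+T, against 48.7 in T+O. Plk4, which duplicates centrioles, had 26.6, 34.6 and 61.6 in T+T, against 71.9 in T+O, and the kinase Nek7 had 36.8, 49.0 and 47.7 in T+T, against 76.6 in T+O. All 3 lay below T+O on every T+T array. Highest were Ube2c, a ubiquitin-conjugating enzyme of the anaphase-promoting complex, at 74.5, 27.2 and 45.5 in T+T against 12.2 in T+O, the spindle protein Spag5 at 73.4, 125 and 104 in T+T against 55.5 in T+O, and the Cdk subunit Cks1b at 111, 126 and 145 in T+T against 83.9 in T+O.

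In the DNA replication list (37 genes, median -0.01), Rfc1, the large subunit of the clamp loader, had 45.9, 58.5 and 79.2 in T+T, against 145 in T+O, a log2 difference of -1.15 ± 0.30 (SE; adjusted p = 0.31 in limma). Top1, a topoisomerase, had 88.8, 181 and 107 in T+T, against 250.0 in T+O, and the origin recognition gene Orc4 had 20.2, 13.8 and 43.0 in T+T, against 44.3 in T+O. The T+T arrays were below T+O for all 3. The licensing factor Cdt1 was highest at 84.1, 94.1 and 82.6 in T+T, against 55.8 in T+O, followed by Uhrf1, which maintains DNA methylation, at 460.0, 433 and 360.0 in T+T against 327 in T+O, and the clamp loader subunit Rfc4 at 129, 103 and 111 in T+T against 88.9 in T+O. Subunits of the clamp loader thus lay on both sides.

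In the list for G1 control, pocket proteins and E2F (38 genes, median 0.09), Mdm4, an inhibitor of p53, was lowest at 83.8, 80.1 and 139 in T+T, against 220.1 in T+O. The INK4 inhibitor Cdkn2b had 30.6, 19.4 and 32.8 in T+T, against 43.5 in T+O, and the checkpoint loader Rad17 had 53.8, 75.5 and 77.4 in T+T, against 103 in T+O. Highest was Rad1, part of a checkpoint clamp, at 63.3, 67.7 and 79.4 in T+T against 31.0 in T+O. Next came Cdkn2a, which encodes p16 and p19ARF, at 39.6, 54.8 and 46.9 in T+T against 20.7 in T+O. Rbbp7, a histone-binding partner of the retinoblastoma protein, had 692, 755 and 362 in T+T, against 325 in T+O. Its replicate 3 was near T+O, as for several genes above.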

How the data were processed

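The study put total testis RNA of hypogonadal mice on 4 oligonucleotide arrays, with 1 colour. The authors deposited 1 signal intensity per probe set and array on a linear scale, for 12488 probe sets; the software and scaling behind these intensities are not given in the sources used here. After 66 control probe sets were removed, each array was multiplied by a factor (0.779 to 1.33) that brought its mean, with 2% of probe sets trimmed at each end, to the mean of the 4. An offset of 10, the 25th percentile of scaled signals, was added before log2. Probe sets whose mean over the 4 arrays exceeded the 40th percentile (a scaled signal of 22.7) were tested, 7453 in all.

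T+T minus T+O was tested on all of them with limma 3.58.1 in R 4.3.3 (lmFit, eBayes with intensity trend, two-sided, Benjamini-Hochberg, threshold 0.05), which left 2 residual degrees of freedom. The spread of the single T+O array is taken to equal that in T+T. No detection calls were used, and the number of arrays limits the precision. Groups came from the titles. The third T+T array has no number in its title and is called replicate 3.

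Probe sets were named from the platform annotation: 10833 had 1 symbol, 396 several and 1193 none. Gene IDs of 10817 were found in a RefSeq table of GRCm38.p6. In the lists of further genes, the probe set with the highest mean signal stands for a gene. Members and lists were chosen with earlier results of these data known. Values per array are given for the 8 lowest and 6 highest members, for members whose probe sets disagree by over 1.5-fold, and for a set of central cell cycle genes. Of each list of further genes the 3 lowest and 3 highest are given. Alternatives covered scaling, offset, filter, trend, each T+T array left out, and the reading of the arms.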

Additional observations from a re-analysis of the deposited data

How the results depend on the processing

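No paired analysis was possible because only 1 array is titled T+O, so no second pair can be formed. No cell cycle probe set passed the adjusted threshold in limma under any alternative except the omission of 1 T+T array, where 0 to 1 passed (Ttk, without replicate 1, a setting in which 63 of all 7453 probe sets passed, against 2 with all arrays). The T+T arrays left in that setting are both described as withdrawn, like T+O. Ttk, Bub1 and Top2a were at least 1.5-fold lower on every T+T array under all scalings, offsets, filters and omissions run. The share of all probe sets that were so ranged from 1.31% with an offset of 35 to 5.65% without T+T replicate 3. It was 2.83% after median scaling and 2.72% without replicate 1. The 3 of 41 are 7.32%. With no filter, 99457_at of Mki67 joined them, 4 of 56 probe sets against 2.48% of all. Without T+T replicate 2, a Ccnd1 probe set did, 4 of 41 against 2.66%. When T+T replicates 2 and 3 count as withdrawn, E2f1 and Ttk took the place of Ttk, Bub1 and Top2a. The adjusted p of Bub1 ranged from 0.055 to 0.92, that of Top2a from 0.090 to 0.94 and that of Ttk from 0.019 to 0.92 in limma. The count of 2 probe sets at least 1.5-fold higher stood against 1.82% of all probe sets. It was 0 with a larger offset (35, the 50th percentile), where the share of all fell as well, to 0.765%. It was 0 with 1 line per gene, against 1.48% of genes, and 0 when T+T replicates 2 and 3 count as withdrawn, against 0.657%. With a stricter filter (60th percentile) it was 1 of 30, against 1.25%. The median log2 difference of 0.11 became 0.077 after median scaling, 0.062 with no filter and 0.157 with the stricter filter, and was 0.070 to 0.097 with 1 T+T array left out. The median of all probe sets moved as well, from 0.026 to 0.00039 after median scaling, 0.034 with no filter and 0.031 with the stricter filter. With 1 T+T array left out it was 0.021 to 0.034. In T+T replicate 1 alone, the 6 lower of 41 probe sets became 3 of 41 with the larger offset and 11 of 56 with no filter. The 5 higher of 41 became 3 of 41 with the larger offset. The share of all probe sets was not counted for replicate 1 under these settings, so these shifts cannot be set against a background. For the further genes, the 2 lower became 1 with the larger offset, 0.877% against 1.44% of all genes. They became 0 when T+T replicates 2 and 3 count as withdrawn, against 2.17%. With 1 T+T array left out they were 2 to 7, 1.75% to 6.14% against 2.7% to 5.88%. The 4 higher became 0 with the larger offset, against 0.617% of all genes. They became 2 with the stricter filter, 2.41% against 0.955%, and 1 with replicates 2 and 3 read as withdrawn, 0.877% against 0.652%. Under the same reading the sign turned for Cdk1 (-0.025), Wee1 (0.043), Ccna2 (0.24) and Cdk2 on 94412_at (-0.13). Where a cause is not named, the cause was not tested. The lone T+O array limits every value, and dim probe sets depend on the offset.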
